A study of Mus musculus with 2 samples.

Results

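The cells described here are Arg1-high Nos2-low macrophages from subcutaneous tumours of mice, 630 of the 10533 cell barcodes of a single-cell RNA series. They were chosen by UMI counts, a UMI being a molecular tag that marks 1 captured RNA molecule. A barcode was kept with at least 1000 UMIs and under 10% mitochondrial UMIs, which left 7642 barcodes. A member then held at least 3 UMIs of C1qa, C1qb, C1qc and Csf1r together, at least 5 of Lyz2, at least 10 of Arg1 and fewer than 10 of Nos2 and Cxcl9 together. It held 0 UMIs of the T cell receptor genes Cd3d, Cd3e and Cd3g and at most 2 of the dendritic cell genes Cd209a, Flt3 and Kmo. The rule selected 431 cells in the CD94-KO library and 199 cells in the WT library.

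The series compared live CD45+ cells, sorted by flow cytometry with 7AAD as the stain for dead cells, from 2 groups of mice aged 6 to 8 weeks. One group was CD94-KO on the C57BL/6J strain and the other was WT C57BL/6J, and both carried subcutaneous tumours. Each group gave 1 library, made from 5 tumour-bearing mice with the 10x Genomics 3′ chemistry. No label ties a cell to a mouse, so genotype, pool of mice and library cannot be told apart, and CD94-KO and WT are set side by side without a test. CD94 is the protein of Klrd1, which pairs with NKG2 receptors on natural killer (NK) cells and some CD8 T cells.

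Tumour macrophages that carry arginase 1, the enzyme of Arg1, split arginine into ornithine and urea. Inducible nitric oxide synthase, the enzyme of Nos2, draws on the same amino acid to make nitric oxide, and in mice the pair is a textbook contrast between repair-type and interferon-driven macrophages. Arg1 is induced by IL-4 and IL-13 through STAT6 and by signals of the tumour such as hypoxia and lactate, whereas Nos2 and Cxcl9, a chemokine that draws T cells, answer to interferon gamma.

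The same macrophage limits with other levels of Arg1 and of Nos2 plus Cxcl9 gave 3 gates for comparison. Nos2/Cxcl9-high cells (under 10 Arg1 UMIs, at least 10 of Nos2 plus Cxcl9) numbered 286 in the CD94-KO library and 123 in the WT library. Cxcl9 gave most of their UMIs of the pair, with 13320 against 1353 of Nos2 in CD94-KO and 6624 against 238 in WT. Cxcl9 was detected in 99.3% of CD94-KO and 99.2% of WT cells of this gate. Nos2 was detected in 50% of CD94-KO and 26.0% of WT cells. Double-high cells passed both limits and numbered 194 in CD94-KO and 73 in WT. Double-low cells passed neither and numbered 690 in CD94-KO and 408 in WT. Lymphoid cells numbered 632 in CD94-KO and 591 in WT. They held at least 3 UMIs of Cd3d, Cd3e, Cd3g, Ncr1 and Klrb1c together. They also held fewer than 3 of C1qa, C1qb, C1qc and Csf1r together. These cells served to show UMIs of macrophage genes in cells of another type. The upper limit picks cells low in macrophage RNA, so their levels can understate what free RNA leaves.

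**Figure D1:**
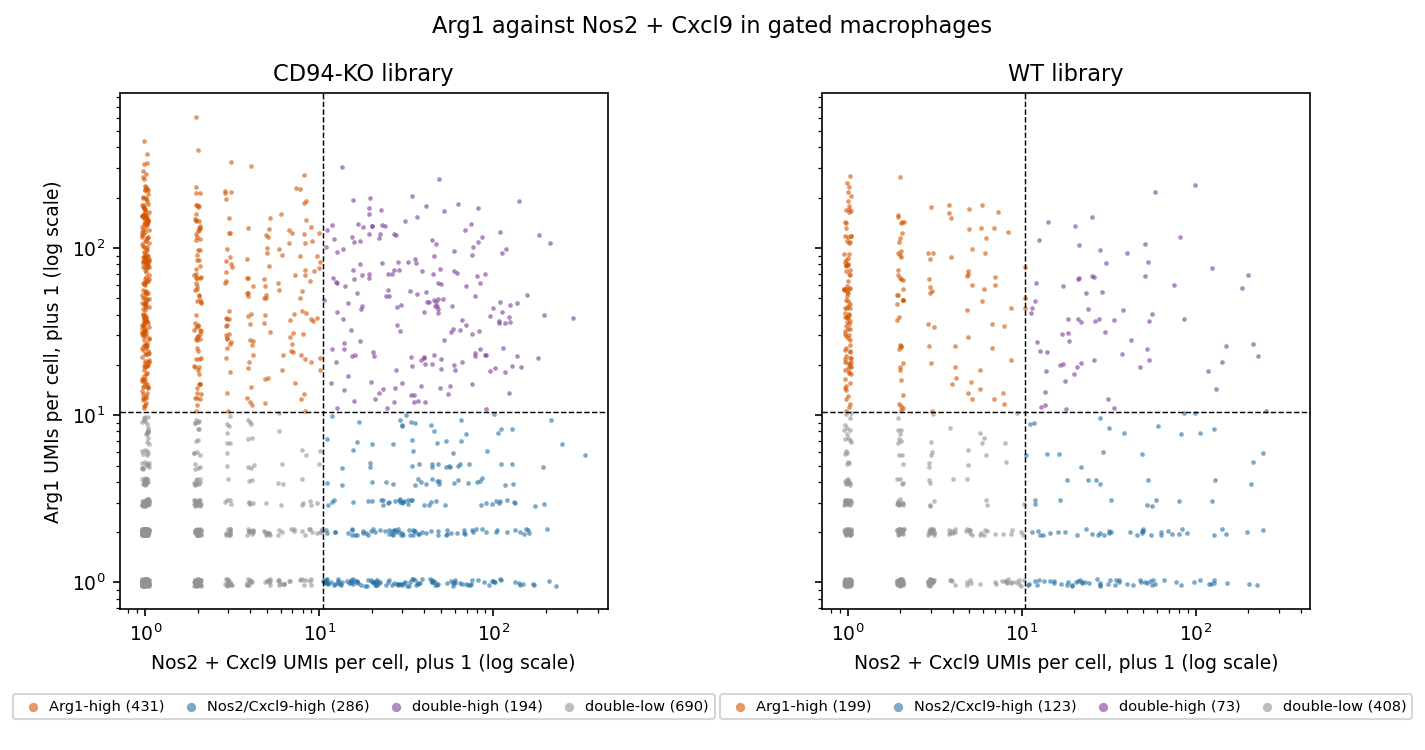
Each point is 1 gated macrophage, with its UMIs of Arg1 on the y axis and of Nos2 plus Cxcl9 on the x axis, both plus 1 on log scales and slightly jittered, for the CD94-KO library (left) and the WT library (right). Dashed lines mark the limits of 10 UMIs. The orange points are the 431 CD94-KO and 199 WT Arg1-high macrophages, and the cells run across both limits without a gap.

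Arg1-high macrophages were 26.9% of the 1601 gated macrophages of the CD94-KO library (exact Clopper-Pearson 95% interval 24.8% to 29.2%) and 24.8% of the 803 of the WT library (21.8% to 27.9%). The intervals overlap and cover counting error only. Without barcodes that held markers of other lineages or the most UMIs, the shares were 30.8% in CD94-KO and 31.4% in WT, the other way round. Set against double-low macrophages, the ratio was 0.625 Arg1-high cells per double-low cell in CD94-KO (interval 0.553 to 0.706) and 0.488 in WT (0.410 to 0.579). Set against Nos2/Cxcl9-high macrophages, the ratio was 1.51 in CD94-KO (1.29 to 1.76) and 1.62 in WT (1.29 to 2.04). Of all barcodes that passed the depth and mitochondrial limits, 9.73% in CD94-KO and 6.20% in WT were Arg1-high macrophages. The gate does not take every cell with Arg1: 1010 CD94-KO and 530 WT barcodes held at least 10 Arg1 UMIs, and the members hold 42.2% of the Arg1 UMIs of CD94-KO and 38.3% of those of WT.

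The members held 5642784 UMIs in CD94-KO and 3056319 UMIs in WT. The median depth per member was 11461 UMIs in CD94-KO and 14030 in WT, against 10764 (CD94-KO) and 11062 (WT) in Nos2/Cxcl9-high, 14281 (CD94-KO) and 15825 (WT) in double-high, 9311.5 (CD94-KO) and 9137 (WT) in double-low and 6611 (CD94-KO) and 7504 (WT) in lymphoid cells. Shared barcodes between the libraries numbered 8, and 3 of them were members. Klrd1, the targeted gene, stood at 13.5 CPM (UMIs of a gene per 1000000 UMIs of the cells summed) in CD94-KO members and 22.6 CPM in WT members, and at 263 CPM in CD94-KO lymphoid cells and 442 CPM in WT lymphoid cells. A 3′ tag can lie outside the deleted part of a gene, so this level checks nothing about the deletion.

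The general macrophage genes Adgre1 and Cd68 stood above their levels in lymphoid cells, a comparison that does not separate macrophages from monocytes. Limits on the C1q genes and Csf1r parted these 2 groups beforehand, so the direction follows in part from the choice of cells. Adgre1, which encodes F4/80, had 71.6 CPM in CD94-KO members and 68.4 CPM in WT members, against 4.48 CPM in CD94-KO and 3.81 in WT in the lymphoid cells of the same libraries. Cd68, a lysosomal protein of macrophages, had 360 CPM in CD94-KO members and 324 CPM in WT members, against 28.9 CPM in CD94-KO and 33.1 in WT in lymphoid cells. Ccr2, the receptor by which monocytes enter tissue, was also present, with 472 CPM in CD94-KO members and 419 CPM in WT members. In the full counts Ccr2 was detected in 91.9% of CD94-KO and 88.9% of WT members. Ly6c2, a monocyte gene, was detected in 67.5% of CD94-KO and 54.3% of WT members. C1qa, a gene of the rule, was detected in 48.7% of CD94-KO and 60.3% of WT members. Summed markers of T cells and dendritic cells were low in members. The 9 T cell genes came to 21.3 CPM (CD94-KO) and 36.0 CPM (WT), with Cd3d, Cd3e and Cd3g at 0 by the rule. The 10 dendritic cell genes, some of them capped by the rule, came to 33.3 CPM in CD94-KO and 32.1 in WT. NK cell genes summed to more, at 349 CPM in CD94-KO members and 548 CPM in WT members, with none of the 10 at 0. Neutrophil genes summed to 132 CPM (CD94-KO) and 64.1 CPM (WT), with Ly6g, their defining gene, at 0 in both. The 11 markers of fibroblasts and other non-immune cells summed to 48.2 CPM (CD94-KO) and 19.3 CPM (WT), with Col1a1, Krt8, Krt18, Epcam, Mlana and Pmel at 0 in both.

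Arg1 itself, which chose the cells, spanned a wide range among them. The median was 53 Arg1 UMIs per member in CD94-KO (quartiles 27 and 118, highest 585) and 50 in WT (quartiles 23 and 89, highest 272). As a summed level this was 6093 CPM (CD94-KO) and 4248 CPM (WT), a ratio of 1.43 (exact conditional 95% interval 1.41 to 1.46, counting error only). Nos2 and Cxcl9 together were at 0 in 223 CD94-KO and 102 WT members. Just inside the Arg1 limit, in the 26 CD94-KO and 15 WT members with 10 to 12 Arg1 UMIs, Spp1 stood at 1766 CPM (CD94-KO) and 1278 CPM (WT). Just outside it, in 30 CD94-KO and 16 WT cells with 7 to 9 Arg1 UMIs, Spp1 stood at 1001 CPM (CD94-KO) and 1022 CPM (WT). Other markers did not step the same way at the limit. Ccl24 stood at 50.3 CPM inside and 110 CPM outside in CD94-KO, and at 321 CPM inside and 194 CPM outside in WT. Mmp12 stood at 83.9 CPM inside and 140 CPM outside in CD94-KO, and at 386 CPM inside and 80.7 CPM outside in WT. Pf4 stood at 252 CPM inside and 171 CPM outside in CD94-KO, and at 40.1 CPM inside and 247 CPM outside in WT.

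The other genes that name the population are Spp1, Ccl24, Mmp12 and Pf4. They were put forward with earlier results of these data known, so their levels are given as a description, without p-values. Spp1 encodes osteopontin, a secreted matrix protein that many tumour macrophages make. It had 2026 CPM in CD94-KO members and 2012 CPM in WT members, against 354 CPM in CD94-KO and 248 in WT in Nos2/Cxcl9-high, 1169 CPM in CD94-KO and 1123 in WT in double-high and 318 CPM in CD94-KO and 444 in WT in double-low macrophages. Both libraries gave the same order at the top, with Arg1-high above double-high and both far above the Arg1-low gates.

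Mmp12 encodes macrophage elastase, a protease that cuts elastin. It had 463 CPM in CD94-KO members and 659 CPM in WT members, against 69.3 CPM in CD94-KO and 107 in WT in Nos2/Cxcl9-high, 331 CPM in CD94-KO and 484 in WT in double-high and 88.8 CPM in CD94-KO and 114 in WT in double-low macrophages. Pf4, a chemokine (CXCL4) first known from platelets, had 356 CPM in CD94-KO members and 344 CPM in WT members. It had 36.7 CPM in CD94-KO and 25.7 in WT in Nos2/Cxcl9-high, 101 CPM in CD94-KO and 251 in WT in double-high and 40.5 CPM in CD94-KO and 39.5 in WT in double-low macrophages, so the double-high level was nearer to the members in WT than in CD94-KO. Ccl24 (eotaxin-2), a chemokine that draws eosinophils, differed most between libraries, with 2104 CPM in CD94-KO members and 379 CPM in WT members. It stood at 57.8 CPM in CD94-KO and 83.9 in WT in Nos2/Cxcl9-high, 536 CPM in CD94-KO and 214 in WT in double-high and 113 CPM in CD94-KO and 126 in WT in double-low macrophages. On the log2 scale its difference to Nos2/Cxcl9-high cells was 5.07 within CD94-KO and 2.11 within WT, and to double-low cells 4.16 within CD94-KO and 1.55 within WT.

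**Figure D2:**
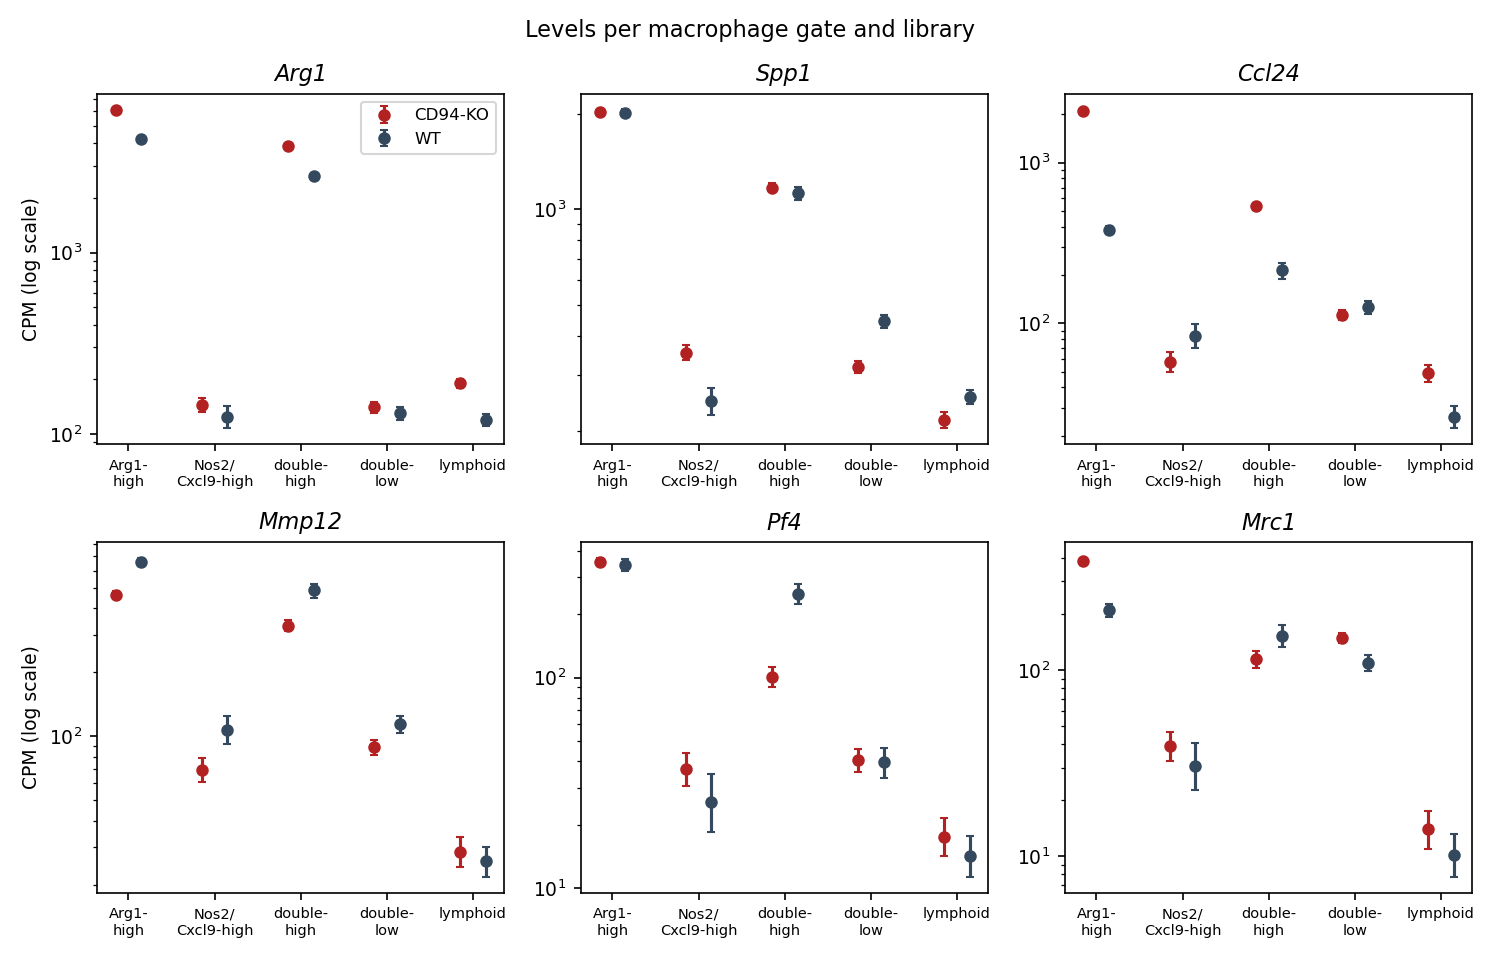
Level of 6 genes in CPM (y axis, log scale) in each macrophage gate and in lymphoid cells (x axis), in the CD94-KO library (red, left of each pair) and the WT library (dark blue), with exact Poisson 95% intervals that cover counting error only. Arg1, which chose the gates, is shown for scale. Spp1, Mmp12, Pf4 and Ccl24 are highest in Arg1-high macrophages of both libraries, and Ccl24 is at 2104 CPM (CD94-KO) and 379 CPM (WT) in these cells.

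None of these genes was present in every member. After random thinning of every cell to 3000 UMIs, possible for 427 of 431 CD94-KO and 198 of 199 WT members, Spp1 was detected in 67.0% of CD94-KO and 76.3% of WT members (81.0% in CD94-KO and 90.5% in WT unthinned). The lymphoid share, a guide to free RNA, was 18.6% in CD94-KO and 21.8% in WT (32.3% in CD94-KO and 40.6% in WT unthinned). Ccl24 was detected in 33.7% of thinned CD94-KO members and 19.2% of thinned WT members (49.9% in CD94-KO and 28.1% in WT unthinned), against 9.4% of CD94-KO and 3.7% of WT lymphoid cells (19.1% in CD94-KO and 7.6% in WT unthinned). Mmp12 was detected in 27.2% of CD94-KO and 35.4% of WT members (38.3% in CD94-KO and 48.2% in WT unthinned), against 4.1% of CD94-KO and 6.5% of WT lymphoid cells (7.9% in CD94-KO and 11% in WT unthinned). Pf4 was detected in 15.7% of CD94-KO and 18.7% of WT members (27.1% in CD94-KO and 30.7% in WT unthinned), against 4.4% of CD94-KO and 2.6% of WT lymphoid cells (6.8% in CD94-KO and 5.8% in WT unthinned). All 4 shares lay above the lymphoid share of their library, a background that the upper limit on C1q genes and Csf1r can lower.

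A few cells held much of the less common transcripts. The 10 cells with most Ccl24 held 36.8% of all Ccl24 UMIs (CD94-KO) and 75.3% (WT), and the highest single member held 1085 Ccl24 UMIs in CD94-KO and 171 in WT, while the median member of either library held 0. For Pf4 the 10 highest cells held 55.5% in CD94-KO and 76.6% in WT. Spp1 was more evenly spread, with 22.9% in CD94-KO and 28.2% in WT and a median of 7 UMIs per member in CD94-KO and 13 in WT.

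Ccl24 was more closely tied to Mrc1 and to Arg1 among the CD94-KO members than among the WT members, a difference that was not tested. Mrc1 encodes the mannose receptor CD206, a standard marker of alternatively activated macrophages. In thinned CD94-KO cells Mrc1 was detected in 63.9% of the members with Ccl24 and in 21.9% of those without it, and in WT in 39.5% of those with it and 26.3% of those without it. Across thinned cells the Spearman correlation of Ccl24 with Mrc1 was 0.485 in CD94-KO and 0.119 in WT, and that of Ccl24 with Arg1 was 0.436 in CD94-KO and 0.109 in WT. Spp1 and Ccl24 showed almost no relation, at -0.029 in CD94-KO and -0.032 in WT, while Spp1 and Mmp12 stood at 0.262 in CD94-KO and 0.234 in WT. These correlations are over the 427 CD94-KO and 198 WT cells of 1 library each, which share library and thinned depth, and serve as a description.

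Ccl24 along the Arg1 range differed in shape between the libraries. From 10 to 19, 20 to 49, 50 to 99 and 100 or more Arg1 UMIs, Ccl24 stood at 301, 781, 1120.1 and 4339 CPM in CD94-KO and at 574, 282, 289 and 446 CPM in WT. Mrc1 stood at 213, 232, 281 and 621 CPM in CD94-KO and at 96.9, 169, 159 and 373 CPM in WT, so it was highest in the top range of both libraries. Mmp12 was lower in CD94-KO than in WT at the top of the range, with 648 CPM (CD94-KO) and 1172 CPM (WT) in the cells with 100 or more Arg1 UMIs. H2-Aa, an MHC class II chain that presents antigen to CD4 T cells, stood at 3210.3, 3386, 2297 and 1485 CPM in CD94-KO and at 2662, 2551, 2309.8 and 1972 CPM in WT. Median depth also went up along these ranges, from 8804 UMIs at 10 to 19 Arg1 UMIs to 14106.5 at 100 or more in CD94-KO and from 9293 to 17896 in WT, and its part in these patterns was not tested.

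**Figure D3:**
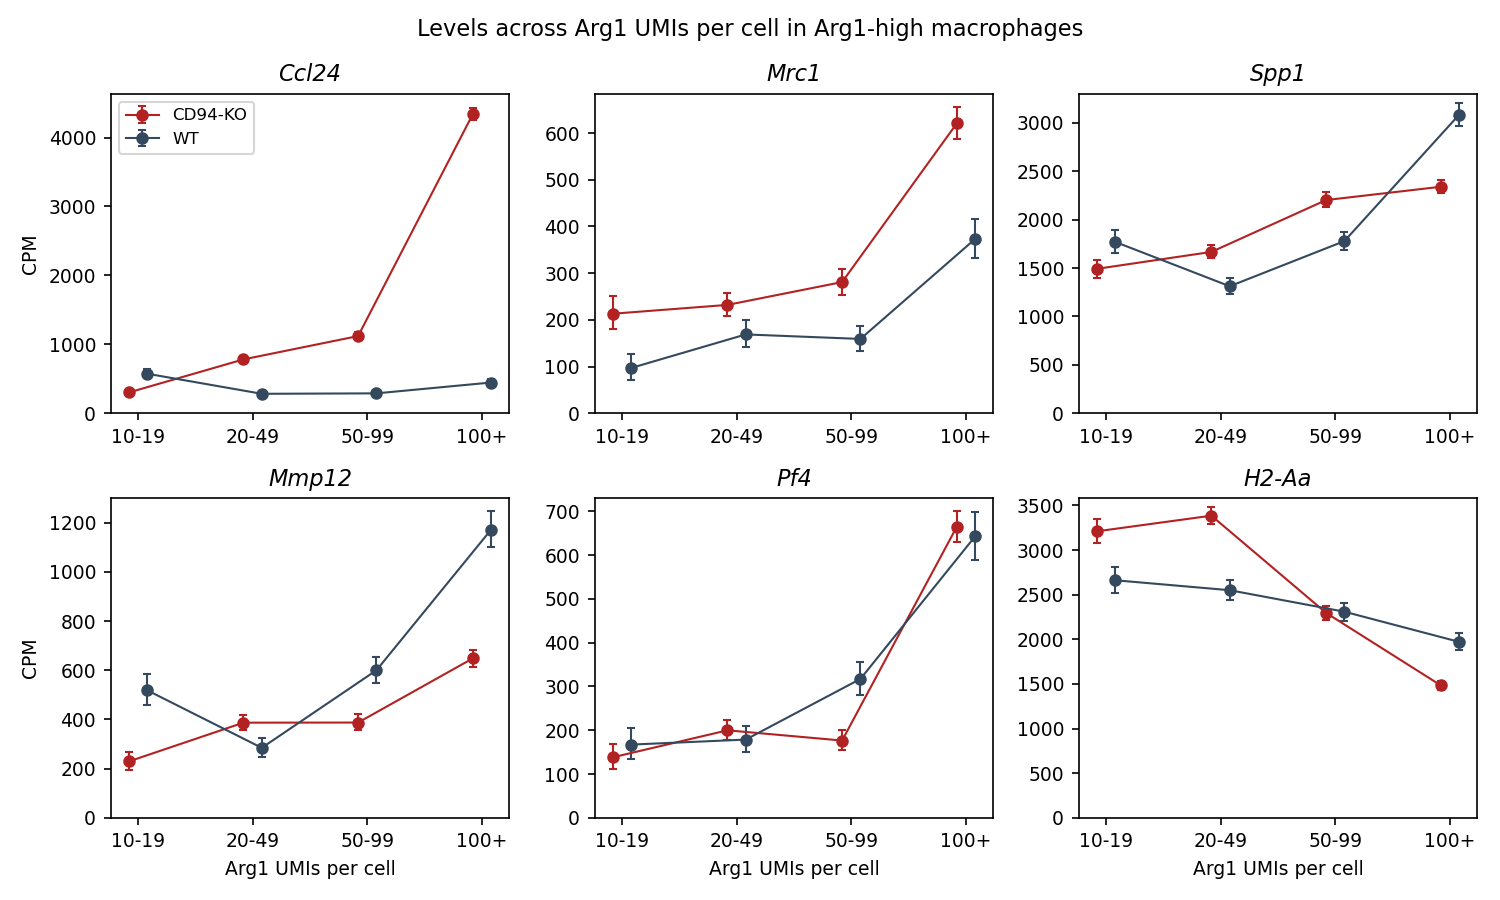
Level of 6 genes in CPM (y axis, from 0) in Arg1-high macrophages split by Arg1 UMIs per cell (x axis), in the CD94-KO library (red) and the WT library (dark blue), with exact Poisson 95% intervals that cover counting error only. The numbers of cells are 70, 134, 101 and 126 in CD94-KO and 41, 58, 58 and 42 in WT. Ccl24 reaches 4339 CPM in the top range of CD94-KO and stays between 282 and 574 CPM in WT, while H2-Aa is lowest in the top range of both.

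To find which further genes went with the gate, UMIs were summed per library and gate into 8 sums and tested with edgeR's quasi-likelihood test with the library as a block. Calls needed a Benjamini-Hochberg adjusted p under 0.05 over all genes and a fold of at least 1.5, and the gate genes were left out, which leaves 9600 genes. The markers Spp1, Ccl24, Mmp12 and Pf4 stayed in. Each of them is counted among the genes higher against Nos2/Cxcl9-high and double-low macrophages. Spp1 and Pf4 are also counted against double-high macrophages. The markers count in any gene list that holds them, so the counts rest in part on genes chosen beforehand. The replicates of a gate are the CD94-KO and the WT library, so these p-values measure how alike the gate difference was in 2 libraries. The gates are cut from the same cells on Arg1, Nos2 and Cxcl9, so genes tied to these within cells differ by that choice.

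Against Nos2/Cxcl9-high macrophages, 307 genes were higher in Arg1-high macrophages (3.2% of the genes tested) and 481 were lower (5.01%). Chemokines that draw neutrophils and monocytes, matrix proteins and scavenger receptors stood among the highest, and interferon-induced genes among the lowest. Fn1, which encodes fibronectin, had 3022 CPM (CD94-KO) and 3320.3 CPM (WT) in Arg1-high cells, against 667 CPM in CD94-KO and 638 in WT in Nos2/Cxcl9-high cells, a log2 fold change of 2.25 ± 0.07 (SE, edgeR adjusted p = 1.27e-10). Pdpn, which encodes podoplanin, had 371 CPM in CD94-KO and 453 in WT against 94.8 CPM in CD94-KO and 76.4 in WT (2.18 ± 0.13, edgeR adjusted p = 7.36e-08). Mrc1 had 383 CPM (CD94-KO) and 210 CPM (WT) in Arg1-high cells against 39.1 CPM in CD94-KO and 30.7 in WT (3.05 ± 0.23, edgeR adjusted p = 4.7e-07). In each of these genes both Arg1-high sums lay above both Nos2/Cxcl9-high sums.

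The CC and CXC chemokine list held 19 measured genes, of which 10 were higher and 5 lower, with a median log2 fold change of 1.22, against 0.02 over all genes tested. The neutrophil attractants Cxcl1 (280 CPM in CD94-KO and 221 in WT against 29.6 CPM in CD94-KO and 31.9 in WT, log2 fold change 3.05 ± 0.27) and Cxcl3 (371 CPM in CD94-KO and 327 in WT against 61.0 CPM in CD94-KO and 25 in WT, 2.89 ± 0.25) and the monocyte attractant Ccl7 (336 CPM in CD94-KO and 257 in WT against 61.3 CPM in CD94-KO and 16.3 in WT, 2.82 ± 0.21) passed with edgeR adjusted p-values of 2.48e-06, 1.95e-06 and 4.32e-07. The T cell attractants were lower. Ccl5 had 218 CPM (CD94-KO) and 171 CPM (WT) in Arg1-high cells against 1341 CPM in CD94-KO and 722 in WT (-2.40 ± 0.13, edgeR adjusted p = 1.9e-08), and Cxcl10 had 243 CPM in CD94-KO and 289 in WT against 1179 CPM in CD94-KO and 1289 in WT (-2.25 ± 0.10, edgeR adjusted p = 2.44e-09).

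The interferon gamma list was lower almost throughout, with 25 of 26 measured genes lower, 0 higher and a median of -1.42. Nos2 and Cxcl9, which set the gate, belong to the same response, so this direction follows in part from the choice of cells. Gbp2, a GTPase that guards against intracellular microbes, had 339 CPM (CD94-KO) and 218 CPM (WT) in Arg1-high cells against 1395 CPM in CD94-KO and 1144 in WT (-2.24 ± 0.09, edgeR adjusted p = 1.72e-09). Gbp5, of the same family, had 20.6 CPM in CD94-KO and 12.4 in WT against 134 CPM in CD94-KO and 98.9 in WT (-2.84 ± 0.14, edgeR adjusted p = 6.58e-09). The type I interferon list had 18 of 26 lower and 0 higher (median -1.15), and the MHC class II list 9 of 11 lower and 0 higher (median -1.17). Ciita, the master regulator of MHC class II, had 8.86 CPM in CD94-KO and 5.89 in WT against 34.4 CPM in CD94-KO and 28.8 in WT (-2.09 ± 0.22, edgeR adjusted p = 1.29e-05). H2-Eb1, a class II chain, had 1761 CPM in CD94-KO and 1644 in WT against 4274 CPM in CD94-KO and 3901 in WT (-1.28 ± 0.08).

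Lists of repair and tissue macrophages leaned higher. Of the alternative activation list 9 of 19 were higher and 2 lower (median 1.17), of the resident and mature macrophage list 8 of 14 were higher and 2 lower (median 1.22), and of the metalloproteinase and matrix list 9 of 16 were higher and 0 lower (median 0.78). The lipid-handling TREM2 list had 9 of 22 higher and 1 lower (median 0.27): Trem2, a lipid-sensing receptor, had 167 CPM in CD94-KO and 186 in WT against 77.3 CPM in CD94-KO and 60.7 in WT (1.29 ± 0.13), and Ctsl, which encodes cathepsin L, had 637 CPM in CD94-KO and 537 in WT against 248 CPM in CD94-KO and 218 in WT (1.31 ± 0.08). Among growth factors Areg, an EGF receptor ligand, had 209 CPM in CD94-KO and 162 in WT against 71.1 CPM in CD94-KO and 34.4 in WT (1.73 ± 0.33, edgeR adjusted p = 0.0025; DESeq2 adjusted p = 0.0535). The list of angiogenesis and growth factors had 8 of 23 higher and 3 lower (median 0.35).

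The immune suppression list split, with 4 of 16 higher and 2 lower. Nt5e encodes CD73, which makes adenosine, and had 146 CPM in CD94-KO and 130 in WT in Arg1-high cells against 37.0 CPM in CD94-KO and 35.1 in WT (1.90 ± 0.13, edgeR adjusted p = 2.87e-07). Il10, an inhibitory cytokine, was low in all sums but higher in Arg1-high cells, at 12.6 CPM in CD94-KO and 19.6 in WT against 1.78 CPM in CD94-KO and 4.38 in WT (2.47 ± 0.39, edgeR adjusted p = 0.000623), a call that was lost with at least 20 Arg1 UMIs per member (edgeR adjusted p = 0.106). Cd274, which encodes PD-L1 and answers to interferon gamma, was lower, at 216 CPM in CD94-KO and 157 in WT against 503 CPM in CD94-KO and 377 in WT (-1.26 ± 0.09, edgeR adjusted p = 2.96e-07).

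The arginine list gave few calls: 1 of 12 genes was higher and 1 lower, with a median of 0.09. Slc7a2, a transporter that brings arginine into macrophages, had 166 CPM in CD94-KO and 173 in WT against 74.4 CPM in CD94-KO and 118 in WT (0.86 ± 0.16, edgeR adjusted p = 0.00204; 0.0732 without the library block). Ass1, which rebuilds arginine from citrulline and so supplies nitric oxide synthase, had 145 CPM in CD94-KO and 179 in WT against 388 CPM in CD94-KO and 392 in WT (-1.30 ± 0.11, edgeR adjusted p = 2.42e-06). The IL-4, IL-13 and STAT6 list had 1 of 18 higher and 2 lower (median -0.12), and oxidative phosphorylation 0 of 28 in either direction at these limits (median -0.05).

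**Figure D4:**
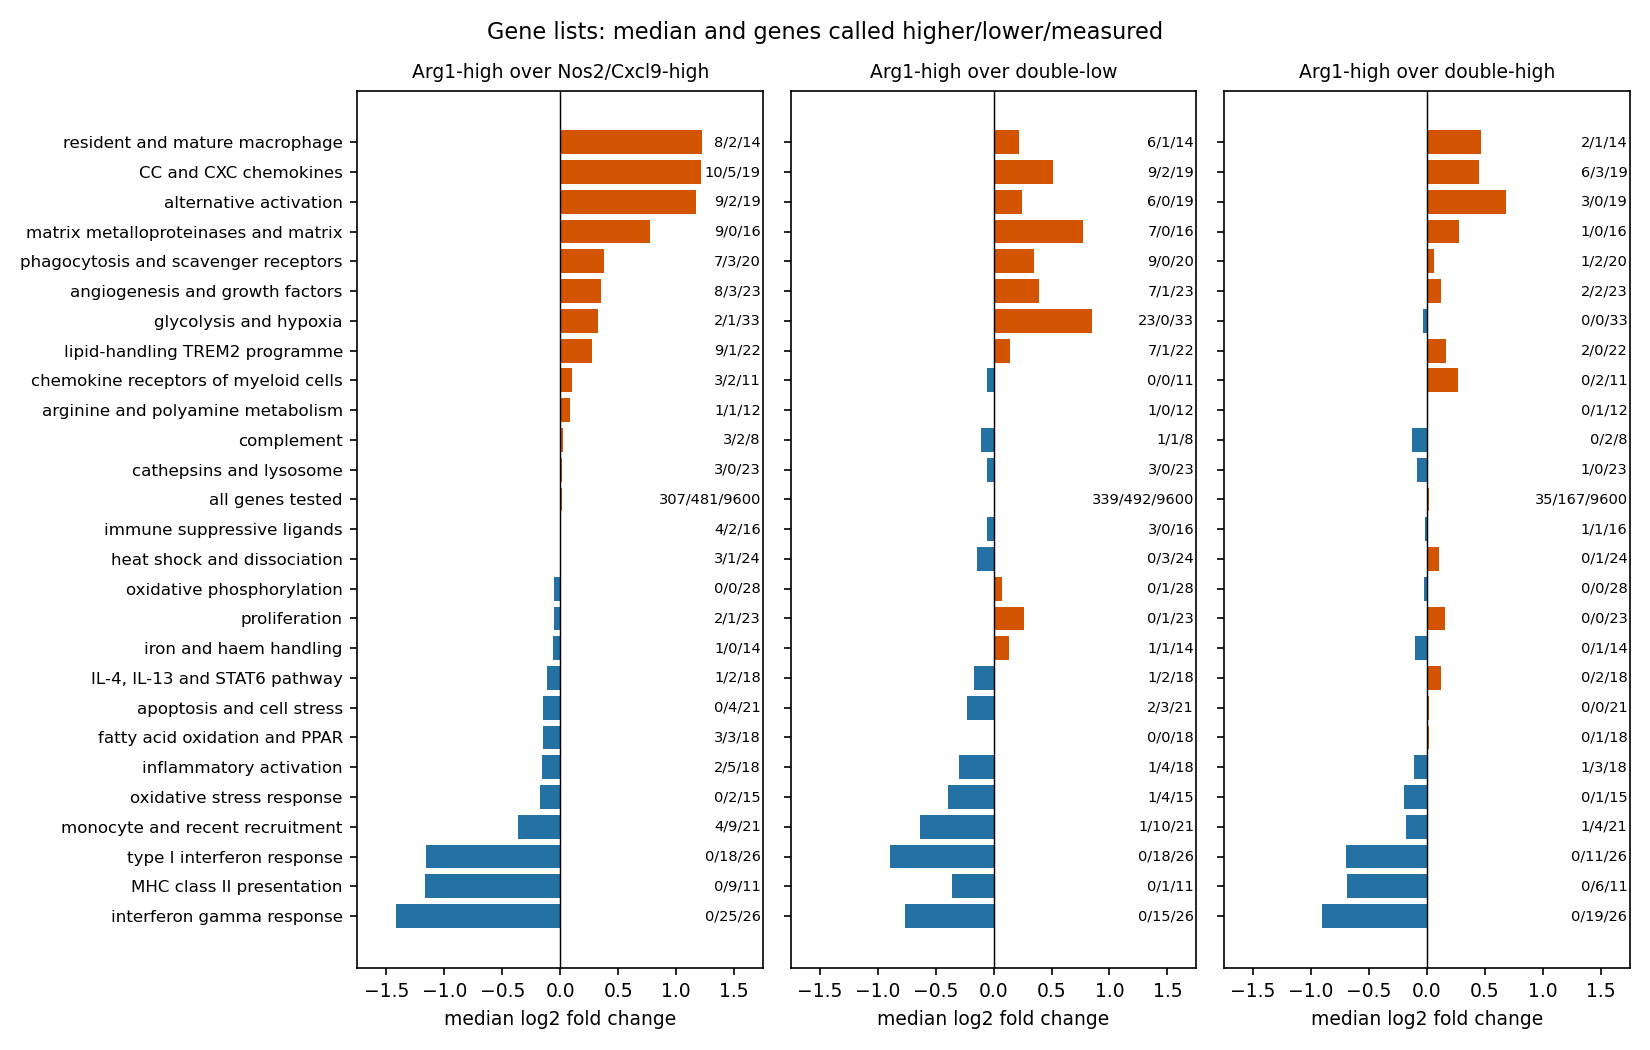
Median log2 fold change (x axis) of each gene list in Arg1-high macrophages over Nos2/Cxcl9-high (left), double-low (middle) and double-high macrophages (right), with the genes called higher, lower and measured printed at the right of each panel. The interferon lists are lower in all 3 panels, and the glycolysis and hypoxia list is highest against double-low, with 23 of 33 genes higher.

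Double-low macrophages share the upper limit on Nos2 plus Cxcl9 with the members and lie below the limit on Arg1. Within that shared limit, Nos2 stood at 50.3 CPM (CD94-KO) and 37.3 CPM (WT) in Arg1-high cells against 20.9 CPM in CD94-KO and 9.04 in WT in double-low cells, given without a test since Nos2 belongs to the rule. Against double-low cells, 339 genes were higher in Arg1-high cells (3.53% of the genes tested) and 492 lower (5.12%). The glycolysis and hypoxia list had more genes higher than any other list, with 23 of 33 higher, 0 lower and a median of 0.85, against 0.01 over all genes. Egln3, an oxygen-sensing hydroxylase that HIF induces, had 110 CPM (CD94-KO) and 81.8 CPM (WT) in Arg1-high cells against 25.1 CPM in CD94-KO and 28.1 in WT in double-low cells (1.87 ± 0.17, edgeR adjusted p = 3.65e-06). Bnip3, a mitophagy receptor that hypoxia induces, had 245 CPM in CD94-KO and 187 in WT against 99.7 CPM in CD94-KO and 75.2 in WT (1.31 ± 0.10, edgeR adjusted p = 1.17e-06). Against Nos2/Cxcl9-high cells 2 genes of this list were higher and 1 lower, and against double-high cells 0 in either direction.

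Slc7a2 was among the 12 largest differences to double-low macrophages, at 166 CPM in CD94-KO and 173 in WT in Arg1-high cells against 28.8 CPM in CD94-KO and 48.3 in WT (2.19 ± 0.16, edgeR adjusted p = 8.53e-07). Nt5e (146 CPM in CD94-KO and 130 in WT against 30.8 CPM in CD94-KO and 36.2 in WT, 2.06 ± 0.12) and Mgl2, which encodes the lectin CD301b (224 CPM in CD94-KO and 240.5 in WT against 61.9 CPM in CD94-KO and 70.0 in WT, 1.82 ± 0.31), were higher too, though Mgl2 was not called by DESeq2 (adjusted p = 0.065). Fn1 had 3022 CPM in CD94-KO and 3320.3 in WT in Arg1-high cells against 920.3 CPM in CD94-KO and 999.7 in WT (1.72 ± 0.07, edgeR adjusted p = 2.26e-09). Pdpn, at 371 CPM in CD94-KO and 453 in WT in Arg1-high cells against 65.6 CPM in CD94-KO and 85.0 in WT, had the largest difference among the genes higher in Arg1-high cells, of at least 50 CPM and outside the named markers (2.46 ± 0.13, edgeR adjusted p = 3.38e-08). In these genes both Arg1-high sums again exceeded both sums of the other gate. Slc7a2 was about as common in double-high macrophages as in members. After thinning it was detected in 35.2% of CD94-KO and 34.2% of WT double-high cells. The shares of members were 31.1% in CD94-KO and 29.3% in WT. Of the arginine list 0 of 12 genes were higher against double-high cells and 1 was lower.

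Genes of recently arrived monocytes were lower than in double-low cells: 10 of 21 were lower and 1 higher (median -0.64). Ly6c2, the surface antigen of inflammatory monocytes, had 458 CPM in CD94-KO and 270 in WT in Arg1-high cells against 1527 CPM in CD94-KO and 959.7 in WT (-1.79 ± 0.07, edgeR adjusted p = 2.26e-09). Hp, which encodes haptoglobin, had 38.5 CPM in CD94-KO and 27.2 in WT against 219 CPM in CD94-KO and 199.6 in WT (-2.68 ± 0.12, edgeR adjusted p = 9.86e-09). The phagocytosis and scavenger list had 9 of 20 higher and 0 lower (median 0.35), with Mrc1 at 383 CPM in CD94-KO and 210 in WT against 148 CPM in CD94-KO and 109 in WT (1.18 ± 0.18).

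Interferon-induced genes were lower than in double-low cells as well, with 15 of 26 of the interferon gamma list (median -0.76) and 18 of 26 of the type I list (median -0.90) lower and 0 higher in either. Cxcl9 stood at 66.1 CPM (CD94-KO) and 57.9 CPM (WT) in Arg1-high cells against 93.0 CPM in CD94-KO and 127 in WT, so the 2 gate genes stood in opposite order in these gates in both libraries. Irgm1, an interferon-induced GTPase, had 57.1 CPM in CD94-KO and 33.0 in WT against 177 CPM in CD94-KO and 111 in WT (-1.68 ± 0.10, edgeR adjusted p = 1.39e-07). MHC class II genes were nearer in level: 1 of 11 was lower, and H2-Aa had 2399 CPM in CD94-KO and 2342 in WT against 3863 CPM in CD94-KO and 3081 in WT, a log2 difference of -0.55 ± 0.07 that was under the limit of 1.5-fold. Hmox1, the haem-degrading enzyme often listed with repair macrophages, was lower in Arg1-high cells, at 255 CPM in CD94-KO and 208 in WT against 560.2 CPM in CD94-KO and 479.8 in WT (-1.17 ± 0.12, edgeR adjusted p = 1.32e-05). Double-low cells were shallower, with medians of 9311.5 (CD94-KO) and 9137 UMIs (WT) against 11461 (CD94-KO) and 14030 (WT) in Arg1-high cells, and with each cell thinned to 3000 UMIs the counts of genes stayed within 1.5 times those given.

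Double-high macrophages carry Arg1 along with Nos2 or Cxcl9. Here 35 genes were higher in Arg1-high cells (0.365% of the genes tested) and 167 lower (1.74%), so fewer genes were called than against either Arg1-low gate; the difference between these counts was not tested. The chemokine list had 6 of 19 higher and 3 lower (median 0.45). Ccl9, a monocyte attractant of mice, had 838 CPM (CD94-KO) and 692 CPM (WT) in Arg1-high cells against 328 CPM in CD94-KO and 412 in WT (1.05 ± 0.11, edgeR adjusted p = 5.29e-05), and Ccl2, which draws Ccr2-bearing monocytes, had 942 CPM in CD94-KO and 946 in WT against 506 CPM in CD94-KO and 446 in WT (0.97 ± 0.12, edgeR adjusted p = 0.000222). Mrc1 had 383 CPM in CD94-KO and 210 in WT against 114 CPM in CD94-KO and 152 in WT (1.16 ± 0.20, edgeR adjusted p = 0.0034; DESeq2 adjusted p = 0.084). Within CD94-KO its difference was 1.70 on the log2 scale and within WT 0.45.

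The interferon gamma list had 19 of 26 lower than in double-high cells and 0 higher (median -0.90), and the MHC class II list 6 of 11 lower (median -0.69). Ly6i, a Ly6 family surface protein, had 112 CPM in CD94-KO and 64.1 in WT in Arg1-high cells against 585 CPM in CD94-KO and 328 in WT (-2.38 ± 0.11, edgeR adjusted p = 3.18e-08). Rsad2, an antiviral gene (viperin), had 109 CPM in CD94-KO and 39.3 in WT against 236 CPM in CD94-KO and 179.7 in WT (-1.50 ± 0.22, edgeR adjusted p = 0.00115; 0.0571 with at least 20 Arg1 UMIs per member). The counts against double-high cells rest on few cells, since that gate held 194 in CD94-KO and 73 in WT, and without the library block 8 genes were higher and 34 lower.

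Other lists gave few calls. Heat shock and dissociation genes had 3 of 24 higher and 1 lower against Nos2/Cxcl9-high, 0 higher and 3 lower against double-low, and 0 higher and 1 lower against double-high cells. Proliferation genes had 2 of 23 higher and 1 lower against Nos2/Cxcl9-high and 0 higher and 1 lower against double-low cells. Of the NK cell markers 0 of 10 were called against Nos2/Cxcl9-high and double-high cells and 1 was lower against double-low cells: Gzmb, a granule protease of killer cells, at 20.7 CPM in CD94-KO and 51.4 in WT in Arg1-high cells against 26.9 CPM in CD94-KO and 102 in WT (-0.73 ± 0.16, edgeR adjusted p = 0.00803). This call was lost without the barcodes that held markers of other lineages (edgeR adjusted p = 0.554).

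The promoters of genes from the lists with most calls are shown here, taken from RefSeq on GRCm38.p6 as the 300 bases that run from 250 before to 50 after the transcription start. Gbp5 stands for the interferon lists, Egln3 for the hypoxia list, and Spp1 and Pf4 for the genes that name the population. Capitals mark every match, on either strand, to 5 motifs: the interferon gamma site GAS (TTCNNNGAA), the STAT6 site (TTC and GAA with 4 bases between them), an interferon site pair (GAAA and GAAA with 2 bases between them), the core of the hypoxia site (ACGTG) and the AP-1 site (TGANTCA).
Spp1: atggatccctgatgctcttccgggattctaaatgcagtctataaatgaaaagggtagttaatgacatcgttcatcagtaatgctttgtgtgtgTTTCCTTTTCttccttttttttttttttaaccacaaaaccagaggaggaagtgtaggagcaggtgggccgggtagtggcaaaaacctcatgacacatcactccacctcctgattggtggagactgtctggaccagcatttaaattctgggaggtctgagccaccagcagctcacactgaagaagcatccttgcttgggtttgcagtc
Pf4: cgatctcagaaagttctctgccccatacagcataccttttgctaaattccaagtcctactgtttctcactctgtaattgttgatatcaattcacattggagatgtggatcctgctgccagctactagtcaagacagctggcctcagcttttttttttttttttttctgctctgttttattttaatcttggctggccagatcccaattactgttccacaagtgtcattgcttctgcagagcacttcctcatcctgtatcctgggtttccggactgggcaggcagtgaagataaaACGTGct
Gbp5: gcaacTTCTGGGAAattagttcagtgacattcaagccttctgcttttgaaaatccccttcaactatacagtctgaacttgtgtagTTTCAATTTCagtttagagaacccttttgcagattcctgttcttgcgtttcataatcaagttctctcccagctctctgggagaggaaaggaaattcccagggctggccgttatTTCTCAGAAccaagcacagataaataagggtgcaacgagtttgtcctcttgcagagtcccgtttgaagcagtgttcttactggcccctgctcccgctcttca
Egln3: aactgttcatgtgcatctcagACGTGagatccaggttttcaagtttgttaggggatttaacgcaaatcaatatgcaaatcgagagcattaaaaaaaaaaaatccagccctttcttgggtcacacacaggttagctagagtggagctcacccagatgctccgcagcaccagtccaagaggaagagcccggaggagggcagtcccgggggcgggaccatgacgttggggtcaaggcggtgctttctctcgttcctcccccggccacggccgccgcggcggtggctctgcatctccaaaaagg

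The Spp1 window (chr5:104434861-104435160, plus strand, the upstream of 2 listed starts) holds 1 interferon site pair, read on the other strand. The Pf4 window (chr5:90772185-90772484, plus strand) holds 1 hypoxia core, after the start. The window of Mmp12, another gene that names the population, is not printed here and holds no match to any of these motifs. The Gbp5 window (chr3:142496684-142496983, plus strand) holds 2 GAS matches and 1 interferon site pair. The Egln3 window (chr12:54203825-54204124, minus strand) holds 1 hypoxia core, 229 bases before the start.

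Of the interferon gamma list 19 of 27 genes had a window, and 10 of them (52.6%) held a GAS match, against 8.42% of the 27025 promoters listed. An interferon site pair was in 9 of these 19 (47.4%) and in 12 of the 20 windows found for the type I list (60.0%), against 3.49% of all promoters. Of the glycolysis and hypoxia list 32 of 35 had a window, and 17 (53.1%) held the hypoxia core, against 19.6% of all promoters, whereas 0 of 32 held a GAS match. STAT6 matches were in 7.00% and AP-1 matches in 7.92% of all promoters. These are matches of letters and describe the windows only. Arg1, Nos2 and Ccl24 have no entry in the table.

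Between genotypes, CD94-KO and WT members were set side by side by the ratio of their CPM. A gene was called by size with at least 100 UMIs over both libraries and a ratio of at least 1.5 in either direction, which is no test. Of 6331 genes with enough UMIs, 186 were higher in CD94-KO (2.94%) and 121 were lower (1.91%), and the median difference over all of them was -0.01 on the log2(CPM + 5) scale. Intervals on ratios are exact conditional intervals and cover counting error only.

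Ccl24 had the largest difference among genes present in many cells, with 2104 CPM (CD94-KO) and 379 CPM (WT), a ratio of 5.55 (5.22 to 5.90). It was found in 215 of 431 CD94-KO members and 56 of 199 WT members. Without the 5% of cells of each library that held most Ccl24 (22 in CD94-KO and 10 in WT), the ratio was 9.33. In the other macrophage gates the ratio was 0.689 in Nos2/Cxcl9-high, 2.51 in double-high and 0.895 in double-low cells. Among macrophage gates Ccl24 was thus higher in CD94-KO in the Arg1-bearing ones only, and whether the gates differ was not tested. The difference was not confined to gated macrophages. Lymphoid cells had 49.3 CPM in CD94-KO and 26.3 in WT (1.87). All kept barcodes outside the members, which include the other gates, had 400 CPM in CD94-KO and 73.0 in WT.

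The other genes of the population did not share the Ccl24 difference. Spp1 had 2026 CPM (CD94-KO) and 2012 CPM (WT) (ratio 1.01, interval 0.976 to 1.04), and Pf4 had 356 CPM in CD94-KO and 344 in WT (1.03, interval 0.959 to 1.12). Mmp12 had 463 CPM (CD94-KO) and 659 CPM (WT) (0.703, interval 0.663 to 0.745), with ratios of 0.648, 0.684 and 0.782 in Nos2/Cxcl9-high, double-high and double-low cells. Among the genes of the rule, the complement genes C1qa (459 CPM in CD94-KO and 844 in WT, ratio 0.543), C1qb (598 CPM in CD94-KO and 910 in WT, 0.657) and C1qc (303 CPM in CD94-KO and 543 in WT, 0.558) were lower in CD94-KO members, as was Lyz2 (6260 CPM in CD94-KO and 8717 in WT, 0.718), which encodes lysozyme. Csf1r, the receptor for the macrophage growth factor CSF1, stood at 404 CPM in CD94-KO and 376 in WT (1.07).

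The alternative activation list split, with 4 of 16 measured genes higher in CD94-KO and 2 lower (median 0.19). Mrc1 had 383 CPM (CD94-KO) and 210 CPM (WT) in members (1.83, interval 1.67 to 2.0) and was found in 227 CD94-KO and 93 WT cells. Chil3, a chitinase-like secreted protein (Ym1), had 727 CPM (CD94-KO) and 303 CPM (WT) (2.40, interval 2.24 to 2.58), with ratios of 0.906, 1.63 and 1.11 in Nos2/Cxcl9-high, double-high and double-low cells. Pdcd1lg2, which encodes PD-L2, had 39.3 CPM in CD94-KO and 17.3 in WT (2.27, interval 1.67 to 3.12). Retnla, another classical gene of this state, was lower in CD94-KO, at 31.7 CPM against 109 CPM in WT, but 97.8% of its CD94-KO UMIs and 100% of its WT UMIs were in 10 cells, and the direction turned with at least 20 Arg1 UMIs (log2 difference 1.80), with Nos2 plus Cxcl9 at 0 (3.22) and with limits per 10000 UMIs (2.17).

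Of the type I interferon list 10 of 21 measured genes were higher in CD94-KO members and 0 lower, with a median of 0.48. Rsad2 had 109 CPM (CD94-KO) and 39.3 CPM (WT) (2.77, interval 2.28 to 3.40), and without the 5% of cells with most of it the ratio was 1.66. Ifit1, Ifit2 and Ifit3, RNA-binding antiviral genes, had 27.8, 18.1 and 18.1 CPM in CD94-KO and 8.51, 2.62 and 4.91 CPM in WT, in 35, 28 and 25 CD94-KO cells and 10, 8 and 10 WT cells. Slfn5, also interferon-induced, had 57.2 CPM (CD94-KO) and 27.2 CPM (WT) (2.11, interval 1.65 to 2.72). The ratio of Rsad2 was 1.40 in Nos2/Cxcl9-high, 1.32 in double-high and 0.966 in double-low cells. That of Slfn5 was 1.42, 1.57 and 1.37 in the same gates. Of the interferon gamma list 4 of 23 were higher and 0 lower (median 0.15), among them Gbp2 (339 CPM in CD94-KO and 218 in WT, 1.56) and Irgm1 (57.1 CPM in CD94-KO and 33.0 in WT, 1.73), and of the MHC class II list 0 of 8 passed in either direction (median 0.07).

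Monocyte genes were higher in 5 of 21 and lower in 0 (median 0.39). Ly6c2 had 458 CPM (CD94-KO) and 270 CPM (WT) in members, a ratio of 1.70, and the other gates gave 1.58 in Nos2/Cxcl9-high, 1.77 in double-high and 1.59 in double-low cells, so this difference ran through all the macrophage gates. S100a8, a calcium-binding protein of monocytes and neutrophils, had 43.2 CPM in CD94-KO and 11.5 in WT (3.78, interval 2.64 to 5.55), and 72.5% of its CD94-KO UMIs were in 10 cells. The direction of S100a8 turned with limits per 10000 UMIs (log2 difference -0.45). The neutrophil list had 3 of 4 measured genes higher, beside summed levels of 132 CPM (CD94-KO) and 64.1 CPM (WT), and its part in the S100a8 difference was not tested.

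**Figure D5:**
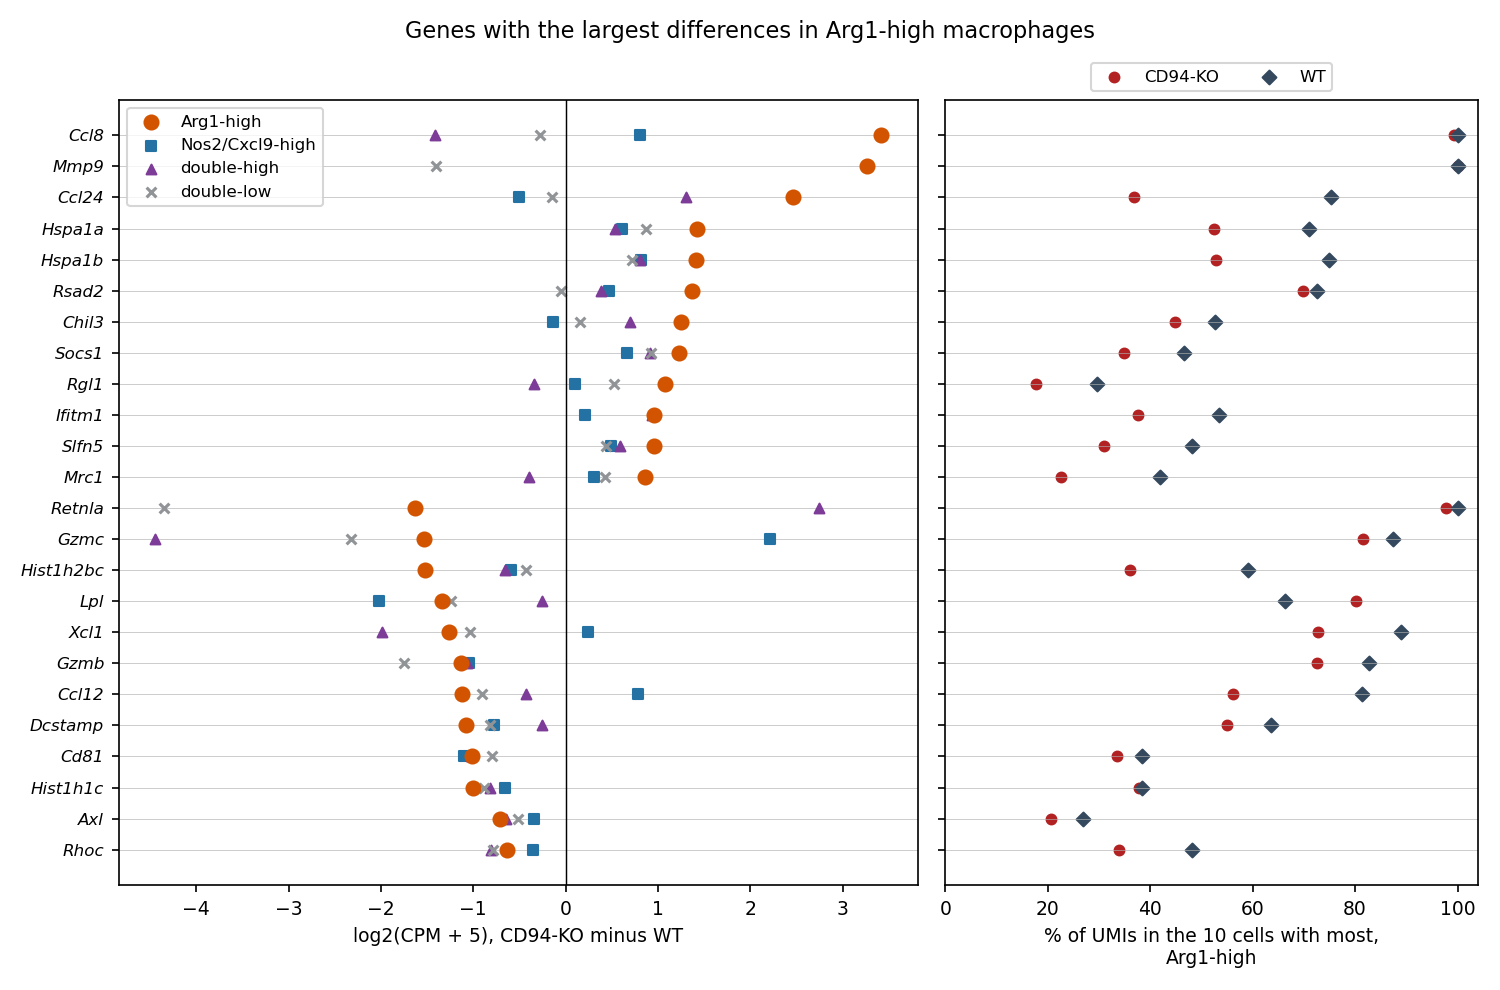
Left, difference CD94-KO minus WT in log2(CPM + 5) (x axis) for the 12 genes with the largest differences in each direction in Arg1-high macrophages (orange circles). The same gene is shown in the other 3 gates where it had enough UMIs over both libraries together. Right, percent of each gene's UMIs held by the 10 Arg1-high cells with most of them, in CD94-KO (red circles) and WT (dark diamonds). Ccl8, Mmp9 and Retnla lie near 100% in both libraries, while Rgl1, Mrc1 and Axl are spread over more cells.

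Several large ratios came from single cells. Ccl8, a monocyte attractant, had 136 CPM (CD94-KO) and 8.18 CPM (WT), but it was found in 16 CD94-KO and 10 WT cells, and the 10 highest held 99.2% of the CD94-KO UMIs. Mmp9, a gelatinase, had 295 UMIs in CD94-KO and 3 in WT, in 4 CD94-KO and 2 WT cells. Ctsk, which encodes the osteoclast protease cathepsin K, had 229 UMIs in CD94-KO and 3 in WT, in 9 CD94-KO and 2 WT cells. These 3 genes describe a few cells of the CD94-KO library and not the members at large.

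Other differences were spread over more cells. Hspa1a and Hspa1b, near-identical heat shock genes whose reads cannot be told apart with certainty, had 202 and 206 CPM in CD94-KO and 72.3 and 74.3 CPM in WT, and their ratios in the other gates ran from 1.47 to 1.86. They are also induced when tissue is dissociated, and 2 of the 24 genes of the heat shock and dissociation list were higher. Socs1, an inhibitor of cytokine signalling, had 51.2 CPM (CD94-KO) and 19 CPM (WT) (2.70), Ifitm1 had 267 CPM in CD94-KO and 135 in WT (1.98), and Rgl1, a Ral GTPase exchange factor, had 72.8 CPM in CD94-KO and 32.1 in WT (2.27). Mmp19, a metalloproteinase found in 314 CD94-KO and 121 WT members, had 328 CPM in CD94-KO and 204 in WT (1.61, interval 1.47 to 1.76).

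Among genes lower in CD94-KO members, Cd81, a tetraspanin, had 54.4 CPM (CD94-KO) and 115 CPM (WT) (0.474, interval 0.405 to 0.554), and its ratio was 0.412 in Nos2/Cxcl9-high, 0.470 in double-high and 0.512 in double-low cells. Axl, a receptor for dying cells, had 63.6 CPM in CD94-KO and 107 in WT (0.595, interval 0.510 to 0.693), with ratios of 0.779, 0.627 and 0.680 in those gates. In lymphoid cells the ratio was 0.333 for Cd81 (10.1 CPM in CD94-KO and 30.3 in WT) and 0.770 for Axl (9.33 CPM in CD94-KO and 12.1 in WT). Lpl, lipoprotein lipase, had 36.5 CPM in CD94-KO and 100.1 in WT (0.365), with 80.1% of the CD94-KO and 66.3% of the WT UMIs in 10 cells. Without the 5% of cells with most of it the ratio was 0.088. In lymphoid cells Lpl stood at 2.05 CPM in CD94-KO and 7.10 in WT (0.289). The histone genes Hist1h2bc (34.9 CPM in CD94-KO and 110 in WT, 0.319) and Hist1h1c (67.2 CPM in CD94-KO and 140 in WT, 0.480) were lower as well. The 10 cells with most Hist1h2bc held 36.0% of its CD94-KO and 59.1% of its WT UMIs. Dcstamp, which takes part in fusion of osteoclasts and macrophages, had 21.3 CPM in CD94-KO and 50.4 in WT (0.422; 0.274 without the 5% of cells with most of it). Ccl12, a monocyte attractant of mice, had 44.1 CPM in CD94-KO and 102 in WT (0.434). The 10 cells with most Ccl12 held 56.2% of its CD94-KO and 81.4% of its WT UMIs. Without the 5% of cells with most Ccl12 the ratio was 0.572.

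Gzmc, Gzmb and Xcl1, genes of killer lymphocytes, were also lower in CD94-KO members, at 45.9, 20.7 and 34.4 CPM against 142, 51.4 and 89.7 CPM in WT. The direction of Gzmc turned in members with Nos2 plus Cxcl9 at 0 (log2 difference 1.17). In lymphoid cells these genes had 2698, 1225 and 1231 CPM in CD94-KO and 2788, 1129 and 1051 CPM in WT. The NK marker list had 3 of 6 measured genes lower and 0 higher in CD94-KO members, beside summed levels of 349 CPM (CD94-KO) and 548 CPM (WT). The part of lymphocyte RNA or of cells caught together was not tested, and 144 CD94-KO and 56 WT members held a UMI of a gene from the screen for other lineages.

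The other lists gave few calls between genotypes. Of the arginine list 0 of 12 passed in either direction (median -0.06), of glycolysis and hypoxia 1 of 31 was higher (Pfkfb3, which drives glycolysis, 63.6 CPM (CD94-KO) and 33.7 CPM (WT), 1.89), and of oxidative phosphorylation 0 of 28. Metalloproteinase and matrix genes had 3 of 15 higher and 0 lower, 2 of which are the Mmp9 and Mmp19 described above. Of the lipid-handling list 2 of 21 were higher and 2 lower, with Fabp5, a fatty acid carrier, at 328 CPM in CD94-KO and 217 in WT (1.51). Proliferation genes had 4 of 10 lower and 0 higher (median -0.15): Mki67, a marker of dividing cells, was found in 32 CD94-KO and 20 WT members, with 12.1 CPM in CD94-KO and 19.6 in WT, and its direction turned in members with Nos2 plus Cxcl9 at 0 (log2 difference 0.61) and in thinned cells (0.077).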

How the data were processed

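Per the labels, live CD45+ cells were sorted from subcutaneous tumours and made into 10x Genomics 3′ libraries sequenced on an Illumina NovaSeq instrument. The deposited files hold UMI counts per gene and barcode, which the authors filtered for barcodes that hold cells, per the labels' protocols. Cell Ranger 5.0.0 wrote the count matrices, per the file headers, and the build mm10 and the tool Seurat 4.0 come from the submitters' processing notes. From the 27998 genes and 10533 barcodes the gates were rebuilt as described, UMIs were summed per library and gate, and CPM are the authors' deposited counts divided by the UMIs of a sum and scaled to 1000000.

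Gates were compared with edgeR 4.0.16 in R 4.3.3 (quasi-likelihood test, TMM scaling, filterByExpr, library as a block, 3 residual degrees of freedom, 9610 genes kept, Benjamini-Hochberg). All 8 sums entered each fit, so that they share 1 estimate of the spread. The 2 libraries are the replicates of a gate, and nothing ties cells to mice. CD94-KO and WT members were compared by size, with exact intervals from scipy 1.17.1. Intervals and sums cover counting error only. Alternatives were DESeq2 1.42.0, other scaling, filters, gates, thinning to 3000 UMIs per cell and a screen for barcodes with markers of other lineages. No doublet caller was run. The edgeR step was tested on simulated data.

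The members, gene lists and markers were chosen with earlier results of these data known. Of 549 listed symbols 543 were found, and 6 were not used here. Genes are named by this rule: the gate genes and markers, the 12 largest called differences in each direction with at least 100 UMIs and 50 CPM, and per list the 4 largest. Adgre1, Cd68, Ccr2, Klrd1 and others named to check the cells, and H2-Aa, Irgm1, Ifit genes, Trem2 and further list members, were chosen from the lists after their values were seen where they fall outside that rule. How strand and overlapping genes were treated is not given in the sources used here. One gene of the monocyte list is not reported here.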

Additional observations from a re-analysis of the deposited data

Results flagged for a closer look

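Gzmc, a granzyme of killer lymphocytes, differed in opposite directions between gates: the ratio of CD94-KO over WT was 0.322 in Arg1-high macrophages (45.9 CPM (CD94-KO) and 142 CPM (WT)) and 5.36 in Nos2/Cxcl9-high macrophages (131 CPM (CD94-KO) and 24.4 CPM (WT)). In Arg1-high cells the 10 cells with most Gzmc held 81.5% of the CD94-KO and 87.4% of the WT UMIs. Clec4a1, a C-type lectin receptor, had a ratio of 1.58 in Arg1-high macrophages (82.2 CPM (CD94-KO) and 52.0 CPM (WT)) and 0.567 in double-high macrophages (57.7 CPM (CD94-KO) and 102 CPM (WT)). Neither difference between gates was tested, since each genotype has 1 library.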

How the results depend on the processing

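Counts of called genes depended on the settings more than the directions did. Against Nos2/Cxcl9-high cells, the 307 higher genes became 159 with DESeq2, 165 with no replicate block (no library term) and 202 with cells thinned to 3000 UMIs, and the 481 lower genes became 311 without the block and 316 thinned. Against double-low cells, 339 higher became 160 with DESeq2 and 170 without the block, and 492 lower became 285 and 272. Against double-high cells, 35 higher became 16 with DESeq2, 100 with no filter on low counts, 82 with only the gates compared, 8 without the block, 54 with limits per 10000 UMIs and 61 with the screen for other lineages, and 167 lower became 34 without the block and 107 thinned. The cause was not tested. The fits with DESeq2 size factors kept every count within 1.5 times.

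Between genotypes, 186 higher became 330 at a minimum of 50 UMIs and 122 thinned, and 121 lower became 207 with each cell weighed the same, 286 at 50 UMIs, 72 with Nos2 plus Cxcl9 at 0, 53 thinned and 405 without the 5% of cells with most UMIs of a gene, an alternative chosen after seeing the data. The shares of Arg1-high cells (26.9% in CD94-KO and 24.8% in WT) became 9.73% and 6.20% of all kept barcodes, 22.5% and 19.7% at 20 Arg1 UMIs, 13.9% and 12.7% with Nos2 plus Cxcl9 at 0, and 30.8% and 31.4% with the screen.

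Signs turned in 16 cases (log2). Against Nos2/Cxcl9-high cells Lyz2 was 0.35 with the screen. Against double-low cells Ccl8 was -0.24 without CD94-KO replicate 1 (3.45 without WT replicate 1). Between genotypes, with Nos2 plus Cxcl9 at 0, Cfb was -0.14, Gzmc 1.17, Mki67 0.61, Mt2 0.15 and Retnla 3.22. At 20 Arg1 UMIs Il10 was 1.24 and Retnla 1.80, with limits per 10000 UMIs Il10 was 0.61, Retnla 2.17, S100a8 -0.45 and S100a9 -1.37, thinned Il10 was 0.30 and Mki67 0.077, and with each cell weighed the same Il10 was 0.42. Of single genes and list medians, 3071 values kept direction and call, or stayed within their error where there is no test, 198 lost the call, 75 of them without the block, and 19 gained it. A further 532 moved past their error, 302 of them among the 466 gate folds with 1 library left out. With 1 library left out a gate contrast has no residual degrees of freedom and gives a fold only. Depth limits genes under 100 UMIs in both libraries together.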

Other observations

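Cells near the Nos2 plus Cxcl9 limit give values not described above. Members with 7 to 9 UMIs of Nos2 plus Cxcl9 (34 in CD94-KO and 9 in WT) had 492 CPM of Mmp12 in CD94-KO and 229 CPM in WT, against 1502 CPM in CD94-KO and 226 in WT in double-high cells with 10 to 12 UMIs (14 in CD94-KO and 9 in WT). H2-Aa had 3564 CPM in CD94-KO and 3439 in WT in those members and 4153 CPM in CD94-KO and 3580 in WT in those double-high cells.

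The complement list, beyond the C1q genes of the rule, split in Arg1-high against Nos2/Cxcl9-high macrophages, with 3 of 8 measured genes higher and 2 lower. C3ar1, the receptor for the C3a fragment, had 182 CPM (CD94-KO) and 158 CPM (WT) in Arg1-high cells against 106 CPM in CD94-KO and 83.2 in WT (log2 fold change 0.81 ± 0.10, edgeR adjusted p = 7.18e-05). C3, the central complement protein, had 209 CPM in CD94-KO and 175 in WT against 489 CPM in CD94-KO and 461 in WT (-1.33 ± 0.10, edgeR adjusted p = 6.12e-07), and Cfb, factor B of the alternative pathway, 28.9 CPM in CD94-KO and 18.3 in WT against 169 CPM in CD94-KO and 116 in WT (-2.62 ± 0.12, edgeR adjusted p = 5.67e-09). Sod2, a mitochondrial superoxide dismutase, had 232 CPM in CD94-KO and 263 in WT in Arg1-high cells against 773 CPM in CD94-KO and 649 in WT (-1.54 ± 0.14, edgeR adjusted p = 3.02e-06), and 2 of 15 genes of the oxidative stress list were lower and 0 higher.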
